A study of Mus musculus with 6 samples.

Results

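The 10 genes described here belong to the bone morphogenetic protein (BMP) pathway: the inhibitors of differentiation Id1, Id2, Id3 and Id4, the ligands Bmp2, Bmp4 and Bmp7, the intracellular inhibitor Smad6, and the secreted antagonists Grem1 and Nog. They were taken by gene symbol from a table of 22206 probe sets, in which each of the 10 had exactly 1 probe set, and they are 10 of the 19505 named genes compared. The table holds 6 arrays of mouse embryonic salivary glands taken at a stage written as T13 and cultured for 72 hours. In 3 arrays the glands had no treatment (controls 1 to 3), and in the other 3 they had received TGF-β1 (TGF-β1 1 to 3). The study asked what TGF-β1 does to these glands. The labels name no strain, gland type, TGF-β1 dose or number of animals behind an array, so the p-values below measure the spread between these arrays, which may be technical.

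BMPs are secreted relatives of TGF-β. They bind paired type I and type II serine/threonine kinase receptors, which phosphorylate Smad1, Smad5 and Smad9, and these enter the nucleus with Smad4 and switch on target genes, of which the Id genes and Smad6 are the classic examples. Id proteins have a helix-loop-helix domain but no DNA-binding region, and they hold E proteins such as Tcf3, Tcf4 and Tcf12 in pairs that cannot bind DNA. Noggin and gremlin bind BMPs outside the cell and keep them from their receptors. In developing salivary glands, BMP ligands are known as regulators of branching, with effects that differ between family members. TGF-β1 itself signals mainly through Smad2 and Smad3, and is known to raise or lower Id genes depending on the cell.

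Control 3 stood apart from the other arrays in all results below. Its values correlated with those of the other 5 arrays at 0.55 to 0.60 over all genes (Pearson's r across genes, which are not independent replicates), while those 5 correlated with each other at 0.948 to 0.990. Its interquartile range was 2.05 on the log2 scale against 3.17 to 3.26, and the median of 7 genes that every cell uses was 8.76 in control 3 and 11.87 to 11.98 in the others. The lowest correlations among the other 5 arrays, 0.948 to 0.953, were those of TGF-β1 3. The differences of the 10 genes are therefore given with all 6 arrays and without control 3, and where it matters without TGF-β1 3 as well. Of the 10 genes, 6 had their highest value in control 3 and 3 had their lowest there, against 51.9% and 32.4% of all genes.

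Markers of the labelled tissue were set against the whole array. None of 10 gland epithelium and 9 mesenchyme markers lay below the lower quartile of the array in all 5 arrays other than control 3. The same held for 5 nerve and glia, 6 macrophage and leukocyte and 2 red blood cell markers. In each list of endothelium, cartilage and skeletal muscle, 1 marker lay below it. This measure therefore does not single out gland tissue. The epithelial median was 10.08, 9.72 and 7.56 in controls 1 to 3, and treated arrays lay between 9.98 and 10.82. The mesenchymal median was 9.07, 9.63 and 6.64 in the controls, and treated arrays lay between 8.23 and 8.86. The median of 5 nerve and glia markers was 6.91, 7.44 and 8.15 in the controls, and treated arrays lay between 7.94 and 8.32. In glands of mixed cells, fewer cells of a type and less RNA per cell cannot be told apart.

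Id2 was higher in all 3 TGF-β1 arrays than in any control. Id3 was lower there than in controls 1 and 2, with a difference about as large as that of Id2 once control 3 was left out, and Id1 and Id4 showed no difference beyond the spread between arrays. Bmp2 was lower in all 3 TGF-β1 arrays. None of the 10 passed in limma's fit of all 6 arrays (adjusted p under 0.05 over all 19505 genes), in which 0 genes passed at all (0.0%); at an unadjusted p under 0.05 there were 2 of the 10 members, Id2 and Bmp2, and 389 of all genes. In a fit of the 6 arrays with array weights, which give less weight to arrays that scatter more, 3 of the 10 passed, Id2 as higher and Id3 and Bmp2 as lower, against 6.88% of all genes, of which 3.45% were higher and 3.44% lower. Those weights were 0.0338 for control 3, 0.398 for TGF-β1 3 and 1.65 to 4.52 for the other 4 arrays, and their estimation stopped before its tolerance was reached. In the 4 arrays left without control 3 and TGF-β1 3, 1 of the 10 passed, Id2 as higher, against 2.59% of all genes in either direction and 1.14% as higher. When control 3 was left out and the rest were weighted, Id2 again was the 1 member that passed, against 2.79% of all genes.

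**Figure D1:**
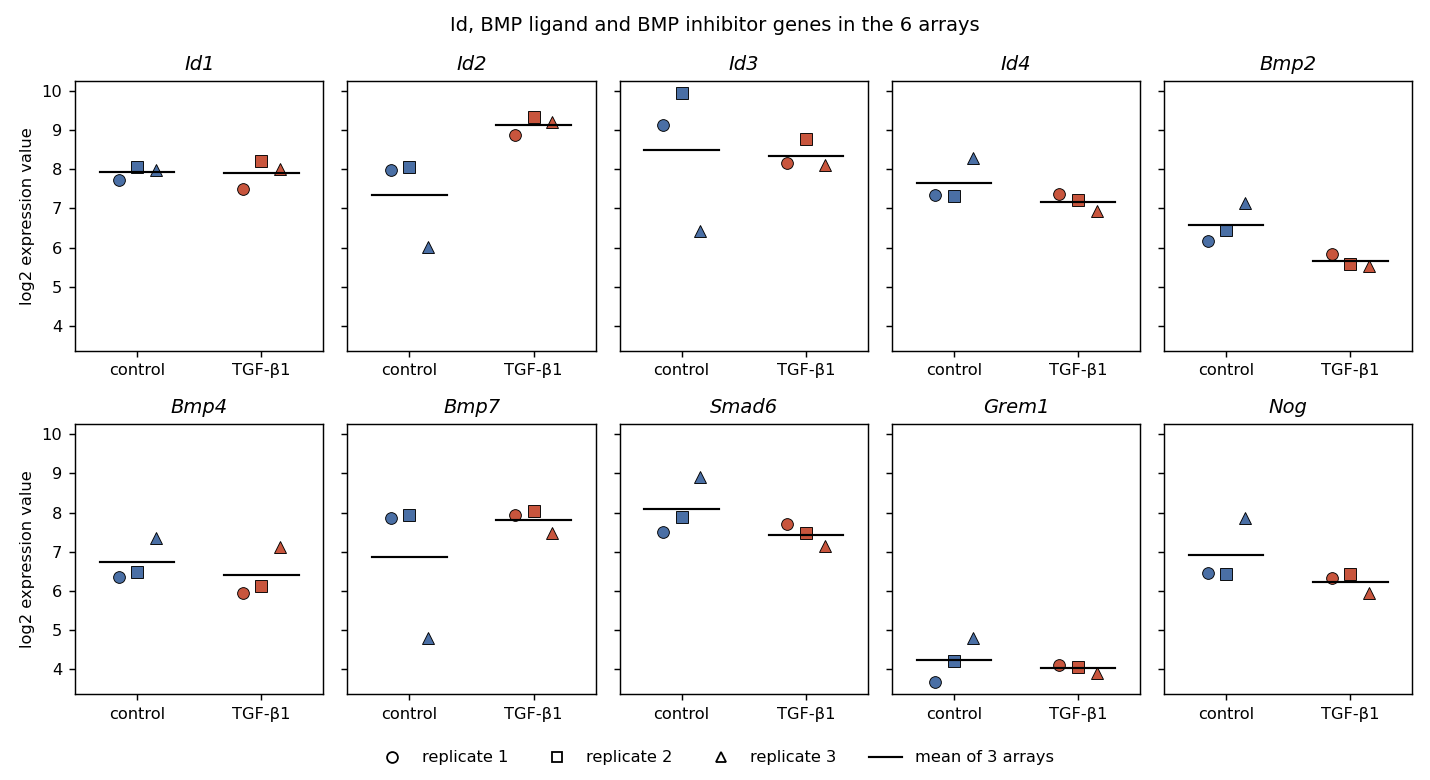
Log2 expression value of each of the 10 genes in each array, with controls in blue, TGF-β1 in red, replicate numbers as symbols and a line at the mean of 3 arrays. The groups of Id2, Bmp2 and Nog do not overlap, and control 3 (blue triangle) lies far from controls 1 and 2 for Id2, Id3 and Bmp7.

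Id2 (Entrez gene 15902), an Id protein with roles in progenitor cells and in leukocyte development, was at 7.97, 8.06 and 6.02 in controls 1 to 3 and at 8.87, 9.34 and 9.21 in TGF-β1 1 to 3 (log2 values). The lowest treated array lay above the highest control, and controls 1 and 2 differed from each other by 0.09. The group means were 9.14 ± 0.24 with TGF-β1 and 7.35 ± 1.16 in the controls (SD, n = 3 each), a difference of 1.79 ± 0.58 (SE; 95% interval 0.41 to 3.16; limma adjusted p = 0.776). Without control 3, whose low value widened the control group, the difference was 1.12 ± 0.20, or 2.17-fold (interval 0.64 to 1.60; limma adjusted p = 0.232, unadjusted p = 0.00119). It was 1.01 ± 0.17 with array weights (limma adjusted p = 0.00535) and 1.08 ± 0.19 without control 3 and TGF-β1 3 (limma adjusted p = 0.0384). Without control 3, 8 of the 10 epithelial markers and 4 of the 5 nerve and glia markers also had differences above 0. So had 10015 of all 19505 genes. The median difference was 0.46 for the epithelial and 0.77 for the nerve and glia markers. The epithelial medians of TGF-β1 1 and 2 (10.04 and 9.98), however, lay below that of control 1. The part of these cells in the Id2 difference was not tested.

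Id3 (Entrez gene 15903), which is much used as a readout of BMP signalling, was at 9.12, 9.94 and 6.44 in controls 1 to 3 and at 8.16, 8.77 and 8.12 in TGF-β1 1 to 3. Every treated array lay below controls 1 and 2 and above control 3, so the groups overlapped. The mean was 8.35 ± 0.36 with TGF-β1 and 8.50 ± 1.83 in the controls (SD, n = 3 each), a difference of -0.15 ± 0.86 (SE; interval -2.16 to 1.86; limma adjusted p = 0.939). Without control 3 it was -1.18 ± 0.32, or 2.27-fold lower (interval -1.97 to -0.40; limma adjusted p = 0.395), and controls 1 and 2 themselves differed by 0.82. With array weights Id3 passed at -1.35 ± 0.25 (limma adjusted p = 0.00872), but in the 4 arrays without control 3 and TGF-β1 3 it did not, at -1.07 ± 0.30 (limma adjusted p = 0.129). Without control 3, 10015 of all 19505 genes had differences above 0. Of the 9 mesenchymal markers, 8 had differences below 0 in that fit, and their median was -0.44. They ranged from 0.02 for Col1a2, a collagen chain, to -1.40 for Fgf10, a growth factor made by gland mesenchyme, named here as the end of that range after its values were seen, which was at 9.07 and 9.63 in controls 1 and 2 and at 7.81, 8.04 and 8.02 in the TGF-β1 arrays. The mesenchymal median was 9.07 and 9.63 in controls 1 and 2, so that both it and Id3 were higher in control 2. In TGF-β1 1 to 3 this median was 8.35, 8.23 and 8.86. There Id3 was highest in TGF-β1 2, where the median was lowest, and lowest in TGF-β1 3, where the median was highest. The part of mesenchymal cells in the Id3 difference was not tested.

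Id1 (Entrez gene 15901), the Id gene best known as a direct BMP target, was at 7.72, 8.06 and 7.99 in the controls and at 7.51, 8.22 and 8.00 in the TGF-β1 arrays. Both the lowest and the highest value were treated arrays, so the spread within the group covered the controls. The difference was -0.01 ± 0.33 with all arrays (SE; limma adjusted p = 0.988) and 0.02 ± 0.26 without control 3, where the interval of -0.60 to 0.65 still allows a change of either sign. Id4 (Entrez gene 15904), the most distant member of the family, was at 7.36, 7.32 and 8.30 in the controls and at 7.37, 7.21 and 6.93 in the TGF-β1 arrays. Controls 1 and 2 lay within the treated range, and the difference was -0.49 ± 0.38 with all arrays and -0.17 ± 0.19 without control 3 (SE; interval -0.63 to 0.29; limma adjusted p = 0.776 and 0.924).

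**Figure D2:**
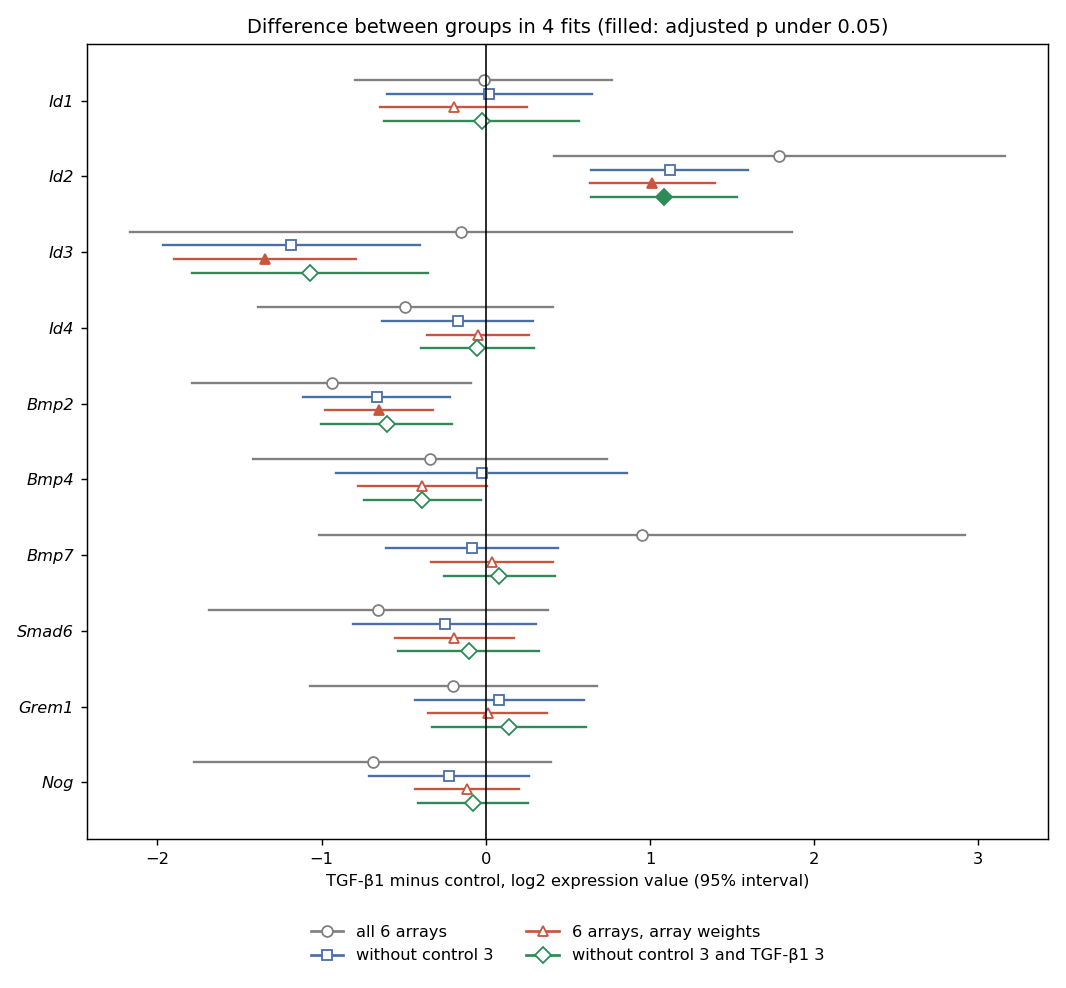
TGF-β1 minus control difference of each gene on the log2 scale with its 95% interval, in limma fits of all 6 arrays, of the 6 arrays weighted, without control 3, and without control 3 and TGF-β1 3; filled symbols passed at an adjusted p under 0.05. Id2 lies above 0 in all 4 fits, and the difference of Id3 moves from -0.15 to -1.18 when control 3 is left out.

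The 4 Id genes can also be set against each other within an array, where a shift common to the array cancels. Because probe sets bind with different strength, the size of such a log ratio has no meaning of its own and only its change between groups is read. All 6 pairs of Id genes were compared, after the values of the single genes had been seen. Id2 minus Id3 was at -1.15, -1.88 and -0.42 in controls 1 to 3 and at 0.71, 0.57 and 1.09 in TGF-β1 1 to 3. These groups did not overlap even with control 3 included, and the change was 1.94 with all arrays and 2.30 without control 3. Id2 minus Id1 averaged -0.57 ± 1.22 in the controls and 1.23 ± 0.12 in the TGF-β1 arrays, and Id2 minus Id4 averaged -0.31 ± 1.71 and 1.97 ± 0.41 (SD, n = 3 each). Without control 3 the change of Id2 minus Id1 was 1.10 in place of 1.80, and that of Id2 minus Id4 was 1.29 in place of 2.28. With all arrays the groups were apart for the 3 ratios that contain Id2 and overlapped for the 3 without it. That contrast rested on control 3. Without it 5 of the 6 ratios were apart, among them Id1 minus Id3 (change 1.21) and Id3 minus Id4 (change -1.01). The 6 ratios are built from 4 genes, so they are not separate results. A share over other gene pairs was not computed. For single genes the groups did not overlap for 11.6% of all genes with all arrays and 25.2% without control 3. For each of the ratios with Id2 the exact permutation test gave a two-sided p = 0.1, the smallest that 3 arrays against 3 allow, and 0.2 after Benjamini-Hochberg adjustment over the 6 pairs.

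**Figure D3:**
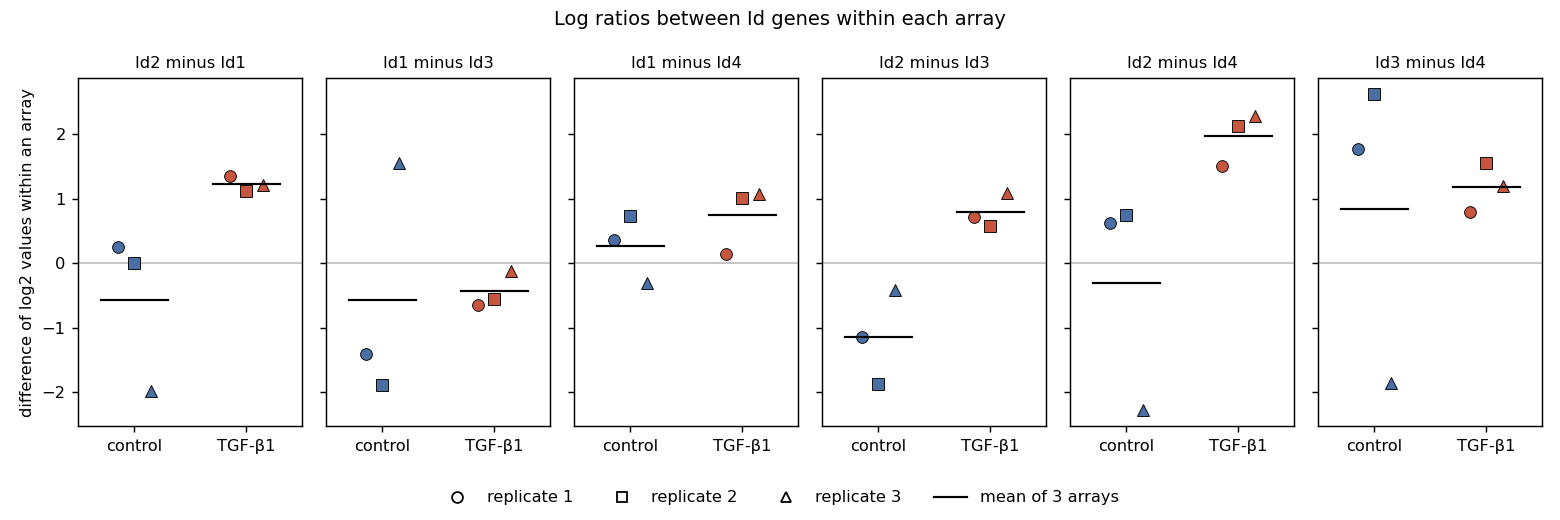
Difference of log2 values between pairs of Id genes within each array, by group, with replicate numbers as symbols and a line at the mean of 3 arrays. Every TGF-β1 array lies above every control in the 3 panels with Id2, and in the other 3 the groups overlap, in Id1 minus Id3 and Id3 minus Id4 through control 3 alone.

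The promoters of Id2 and Id3 are shown because these genes of one family differed in opposite directions without control 3, and that of Id4 as a relative whose difference was small. RefSeq promoters of the GRCm38.p6 build were at hand for 6 of the 10 genes, and the 250 bases before the transcript start are printed 5′ to 3′ on the strand of the gene. Id2 lies on the minus strand at chr12:25096093-25096342, Id3 on the plus strand at chr4:136143572-136143821 and Id4 on the plus strand at chr13:48260866-48261115. Capitals mark GGCGCC, a GC-rich element that Smad proteins of the BMP branch can bind, GTCT or its complement AGAC, the short Smad box, and CCAAT or its complement ATTGG, the box of the factor NF-Y; all were searched on both strands and none overlaps another here.
Id2: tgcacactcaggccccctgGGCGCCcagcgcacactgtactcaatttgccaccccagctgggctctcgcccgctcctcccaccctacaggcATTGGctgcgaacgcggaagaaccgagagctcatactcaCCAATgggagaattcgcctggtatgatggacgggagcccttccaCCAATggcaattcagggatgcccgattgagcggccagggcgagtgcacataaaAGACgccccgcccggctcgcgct
Id3: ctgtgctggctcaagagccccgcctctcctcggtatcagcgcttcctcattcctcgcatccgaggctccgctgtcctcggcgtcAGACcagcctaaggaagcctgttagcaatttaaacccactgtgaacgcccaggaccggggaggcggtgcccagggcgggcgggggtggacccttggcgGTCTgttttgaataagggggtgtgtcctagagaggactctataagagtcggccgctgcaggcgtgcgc
Id4: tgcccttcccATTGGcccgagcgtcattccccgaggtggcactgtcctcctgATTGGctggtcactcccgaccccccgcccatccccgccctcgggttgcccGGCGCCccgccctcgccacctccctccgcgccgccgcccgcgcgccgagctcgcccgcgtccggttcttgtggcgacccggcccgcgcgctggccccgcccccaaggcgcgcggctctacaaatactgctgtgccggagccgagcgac
GGCGCC occurred 1 time in the Id2 window, 1 time in that of Id4 and 0 times in that of Id3, and 9.59% of the 32851 promoters of the table hold it in the same window. CCAAT occurred 3 times in Id2, 2 times in Id4 and 0 times in Id3, against a share of 33.8% of all promoters with at least 1. GTCT, which is so short that 82.9% of all promoters hold it, occurred 1 time in Id2, 2 times in Id3 and 0 times in Id4. Other motifs were searched and are not marked. GGAGCC occurred 1 time in each window, against 26.0% of all promoters. CANNTG (N is any base) occurred 1 time in Id2 and 0 times in Id3 and Id4, against 66.2%. TATAA, searched on the forward strand only, occurred 1 time in Id3 and 0 times in Id2 and Id4, against 16.0%. The share of G and C was 62.8% for Id2, 62.8% for Id3 and 75.6% for Id4, against a median of 52.4% over all promoters. These are matches of letters in a short window and say nothing of whether a factor was bound.

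Among the ligands, Bmp2 (Entrez gene 12156), which in many organs drives differentiation and bone formation, was at 6.18, 6.45 and 7.14 in controls 1 to 3 and at 5.83, 5.59 and 5.53 in TGF-β1 1 to 3. Every treated array lay below every control. The mean was 5.65 ± 0.16 with TGF-β1 and 6.59 ± 0.50 in the controls (SD, n = 3 each), a difference of -0.94 ± 0.36 (SE; interval -1.79 to -0.09; limma adjusted p = 0.776). Without control 3, the control with the highest value, the difference was -0.66 ± 0.18, or 1.59-fold lower (limma adjusted p = 0.406), and controls 1 and 2 differed by 0.28. It passed with array weights, at -0.65 ± 0.15 (limma adjusted p = 0.0241), and not without control 3 and TGF-β1 3, at -0.60 ± 0.17 (limma adjusted p = 0.125).

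Bmp4 (Entrez gene 12159), a ligand made mainly by mesenchyme in many branching organs, was at 6.35, 6.49 and 7.36 in the controls and at 5.94, 6.12 and 7.12 in the TGF-β1 arrays. TGF-β1 1 and 2 lay below all controls, while TGF-β1 3 lay above controls 1 and 2. The difference was -0.34 ± 0.46 with all arrays (SE; limma adjusted p = 0.781) and -0.02 ± 0.36 without control 3 (limma adjusted p = 0.996). It was -0.39 ± 0.15 without control 3 and TGF-β1 3 (limma adjusted p = 0.262), so that its size rested on these arrays. Bmp7 (Entrez gene 12162), a ligand of epithelia that is needed for kidney and eye development, was at 7.86, 7.95 and 4.79 in the controls and at 7.94, 8.03 and 7.48 in the TGF-β1 arrays. Apart from control 3 the groups overlapped, and the difference of 0.95 ± 0.83 with all arrays became -0.09 ± 0.21 without that array (interval -0.61 to 0.44; limma adjusted p = 0.963).

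The inhibitors showed no difference that passed in any of these fits. Smad6 (Entrez gene 17130), which blocks BMP receptors and Smad1 from inside the cell and is itself induced by BMPs, was at 7.50, 7.88 and 8.90 in controls 1 to 3 and at 7.70, 7.47 and 7.15 in the TGF-β1 arrays. The groups overlapped, and the difference was -0.65 ± 0.44 with all arrays and -0.25 ± 0.23 without control 3 (SE; interval -0.81 to 0.31; limma adjusted p = 0.909). Nog (Entrez gene 18121), which encodes the BMP antagonist noggin, was at 6.47, 6.44 and 7.85 in the controls and at 6.34, 6.42 and 5.94 in the TGF-β1 arrays. Its groups did not overlap, but TGF-β1 2 and control 2 were only 0.02 apart, and the difference was -0.69 ± 0.46 with all arrays and -0.22 ± 0.20 without control 3 (SE; interval -0.71 to 0.26; limma adjusted p = 0.776 and 0.907).

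Grem1 (Entrez gene 23892), which encodes the antagonist gremlin 1, was at 3.68, 4.21 and 4.78 in the controls and at 4.11, 4.06 and 3.91 in the TGF-β1 arrays. All 6 values lay below the lower quartile of their array, between the 2.9th and the 10.3rd percentile. The table gives no measure of background, so these values may hold no gremlin transcript at all, and its differences, -0.20 ± 0.37 with all arrays and 0.08 ± 0.21 without control 3 (SE; limma adjusted p = 0.819 and 0.963), cannot be read as a change of the gene.

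Over the 10 genes, the groups did not overlap for 3 genes with all 6 arrays, against 11.6% of all genes. Id2 was the 1 higher gene, where 5.8% of all genes were higher, and Bmp2 and Nog were the 2 lower, where 5.78% were lower. Without control 3 they did not overlap for 4 genes, Id2 as higher and Id3, Bmp2 and Nog as lower, against 25.2% of all genes (12.8% higher and 12.3% lower). The median difference of the 10 was -0.27 with all arrays and -0.13 without control 3, against -0.14 and 0.01 over all genes.

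A wider list of 63 measured BMP pathway genes, grouped by role, was read in the same fits. With all 6 arrays 0 of the 63 passed (0.0% of all genes did), with 1 at an unadjusted p under 0.05. With array weights 4 passed, 2 as higher and 2 as lower, against 6.88% of all genes. Without control 3 and TGF-β1 3, 1 passed, against 2.59% of all genes. With all 6 arrays the groups did not overlap for 2 genes, 3.17% of the list against 11.6% of all genes. Without control 3, the groups of 8 genes did not overlap as higher and those of 8 as lower, which is 25.4% of the list and near the 25.2% of all genes. The median difference of the list was -0.04 with all arrays and -0.10 without control 3, against -0.14 and 0.01 over all genes.

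Of the 10 other ligands, Gdf5, a ligand of joint formation, was at 7.28, 7.00 and 7.77 in controls 1 to 3 and at 8.26, 8.69 and 7.02 in TGF-β1 1 to 3. TGF-β1 1 and 2 lay above all controls, and TGF-β1 3 lay among them. Its difference was 1.26 ± 0.22 with array weights (SE; limma adjusted p = 0.0054). In the 4 arrays without control 3 and TGF-β1 3 it was 1.33 ± 0.19 (limma adjusted p = 0.0254), and it was 0.85 ± 0.48 without control 3 alone and 0.64 ± 0.50 with all arrays (limma adjusted p = 0.826 and 0.776). Gdf6, its close relative, passed as lower with array weights, at -1.03 ± 0.23 (limma adjusted p = 0.0193), and was at -0.53 both with all arrays and without control 3 (limma adjusted p = 0.776 and 0.884). Without control 3 and TGF-β1 3 Gdf6 did not pass, at -0.85 ± 0.26 (limma adjusted p = 0.155). TGF-β1 3, at 5.80, again lay among the controls, which were at 5.30, 6.07 and 5.68.

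Of the 12 receptors and co-receptors, 1 passed with array weights. Bmpr1b, a type I BMP receptor, was at 5.99, 6.35 and 4.98 in the controls and at 5.43, 5.61 and 4.49 in the TGF-β1 arrays, with a difference of -0.81 ± 0.18 (SE; limma adjusted p = 0.0222) with array weights and -0.99 ± 0.36 without control 3 (limma adjusted p = 0.581), against -0.60 ± 0.49 with all arrays (limma adjusted p = 0.776). Without control 3 and TGF-β1 3 Bmpr1b did not pass, at -0.65 ± 0.18 (limma adjusted p = 0.112). The other receptors did not pass in any of these fits. Without control 3 Bmpr1a differed by -0.32, Bmpr2 by -0.24 and Acvr1 by -0.46. With all arrays these were 0.28, 0.70 and -0.34, so that the sign of the first 2 turned on control 3. Eng, the co-receptor endoglin of endothelial cells, was chosen after its values were seen, because it was 1 of the 2 list genes whose groups did not overlap with all 6 arrays, the other being Bmp6. It was at 5.67, 6.56 and 5.92 in the controls and at 6.60, 7.19 and 7.33 in the TGF-β1 arrays, and its difference of 0.99 did not pass (limma adjusted p = 0.776, unadjusted p = 0.0357).

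**Figure D4:**
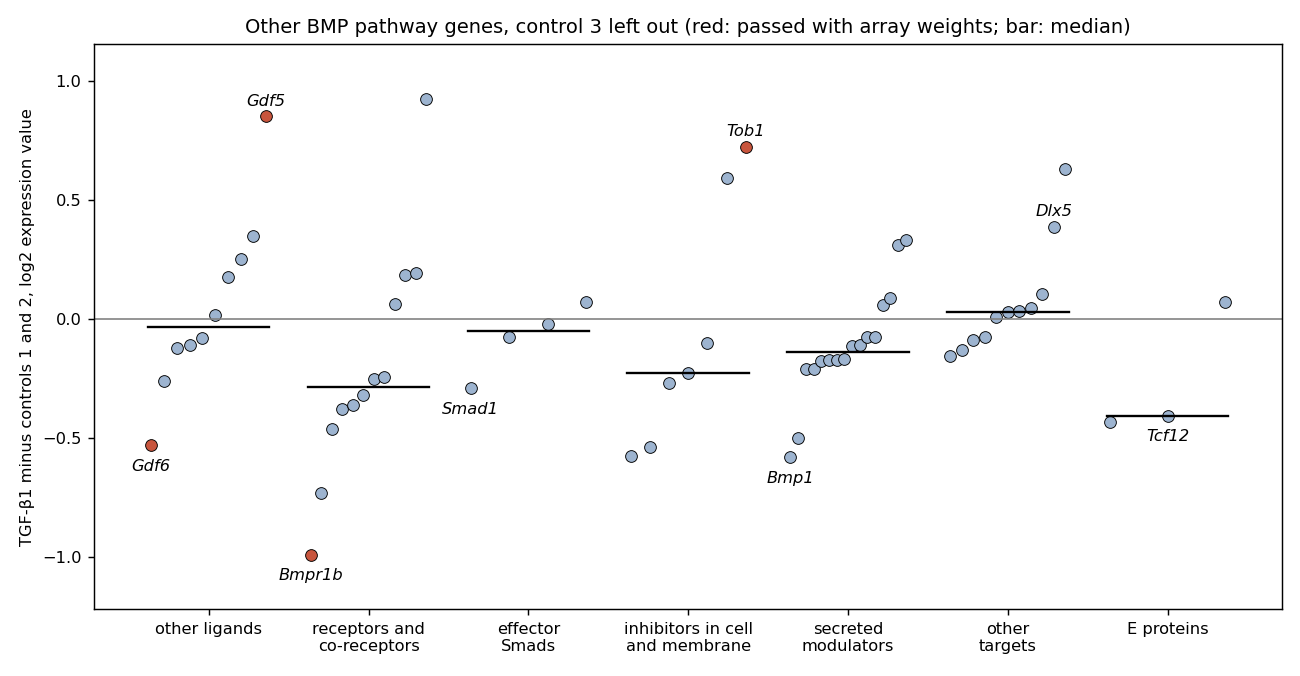
Difference between the TGF-β1 arrays and controls 1 and 2 on the log2 scale for 63 other BMP pathway genes grouped by role, with a bar at the median of each group; red points passed in the array-weighted fit. The 4 red points are Gdf5 and Tob1 above 0 and Gdf6 and Bmpr1b below 0, and most other points lie near 0.

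Of the 4 effector Smads, none passed in these fits. Smad1, with the smallest p among them without control 3, was at 10.46, 10.48 and 7.78 in controls 1 to 3 and at 10.29, 10.38 and 9.86 in the TGF-β1 arrays. Its difference was -0.29 ± 0.21 without control 3 and 0.60 ± 0.74 with all arrays (SE; limma adjusted p = 0.884 and 0.776). Smad4, the partner shared with TGF-β signalling, was at 10.99, 10.89 and 6.25 in controls 1 to 3 and at 11.05, 11.02 and 10.94 in the TGF-β1 arrays, a difference of 0.07 without control 3 and 1.63 with all arrays (limma adjusted p = 0.957 and 0.776).

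Of the 7 inhibitors in the cell and at the membrane, 1 passed with array weights. Tob1, an antiproliferative protein that dampens BMP Smads, was at 6.60 and 6.49 in controls 1 and 2, at 7.87 in control 3 and at 7.23, 7.22 and 7.35 in the TGF-β1 arrays. Its difference was 0.72 ± 0.16 without control 3 and 0.28 ± 0.44 with all arrays (SE; limma adjusted p = 0.295 and 0.795), and with array weights it passed at 0.71 ± 0.14 (limma adjusted p = 0.0106). Without control 3 and TGF-β1 3 it was at 0.68 ± 0.14 (limma adjusted p = 0.0588). Bambi, a decoy receptor, differed by 0.59 without control 3 (limma adjusted p = 0.598) and by 0.08 with all arrays. Smad7, the inhibitory Smad induced by TGF-β, differed by -0.27 without control 3 (limma adjusted p = 0.894) and by -0.70 with all arrays.

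Of the 16 other secreted antagonists and modulators, 0 passed in these fits. Bmp1, a procollagen protease that also cleaves chordin, had the smallest p without control 3, at -0.58 ± 0.28 (SE; limma adjusted p = 0.747), and was at 0.05 ± 0.59 with all arrays. Of the 11 other BMP target genes, 0 passed as well. Dlx5, a homeobox factor, differed by 0.39 ± 0.23 without control 3 (SE; limma adjusted p = 0.842), Msx1 by -0.13 and Msx2 by 0.04, against 0.02, -0.58 and -0.47 with all arrays. The median difference of these 11 targets was 0.03 without control 3 and -0.37 with all arrays. Of the 3 E proteins that Id proteins bind, 0 passed; Tcf12 differed by -0.41 ± 0.16 and Tcf4 by -0.43 without control 3 (limma adjusted p = 0.644 and 0.786), and Tcf3 by 0.07. With all arrays the signs of the first 2 turned, to 0.30 and 0.40, and Tcf3 was at 0.11.

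Finally, the genes most like each Id gene over the 5 arrays other than control 3 were found by the root mean square difference of log2 values after each gene's own mean was removed. They describe these 5 arrays only, since 5 points allow close matches among so many genes. Rtn1, a reticulon of the endoplasmic reticulum found mostly in neurons and neuroendocrine cells, was nearest to Id2 by this root mean square, at 0.03. It was at 8.77 and 8.91 in controls 1 and 2 and at 9.77, 10.22 and 10.05 in the TGF-β1 arrays. Plch1, a phospholipase, came next, at 0.13 by the same measure. The standard deviation of Id2 itself over these arrays was 0.64. Gpnmb, a membrane glycoprotein of macrophages and other cells, and Rspo3, a secreted enhancer of Wnt signalling, were nearest to Id3, at 0.14 and 0.15 against its standard deviation of 0.76. Rspo3 was at 9.11 and 9.65 in controls 1 and 2 and at 7.89, 8.55 and 8.19 in the TGF-β1 arrays. Tcp11l2 and Ppm1d, a phosphatase induced by p53, were nearest to Id1, at 0.05 and 0.06 against a standard deviation of 0.28. Ss18l1, a subunit of a chromatin remodelling complex, and Krtap10-4, of a family of hair proteins, were nearest to Id4, at 0.01 and 0.02 against 0.18.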

How the data were processed

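Total RNA of cultured glands (6 µg) was made into biotin-labelled cRNA for Affymetrix arrays, per the labels' protocols. The deposited table gives, on a log2 scale, 1 value per probe set and array, made by the authors with RMA (background correction, normalization between arrays and a summary per probe set) per the submitters' processing notes; its version and the genome build: not given in the sources used here. They were used as deposited. Of 22206 probe sets, 19572 had 1 gene symbol in the platform annotation, 0 had several and 2634 had none; the brightest probe set stood for a gene. Groups come from the labels, 3 arrays each. limma 3.58.1 in R 4.3.3 (lmFit, eBayes, two-sided, Benjamini-Hochberg over 19505 genes, threshold 0.05) compared them; a difference is TGF-β1 minus control. Alternatives were array weights, arrays left out, quantile normalization, median centring, a filter on dim genes, the mean of probe sets, a trended robust prior and the replicate number as a block. Arrays have no read depth; their number limits the precision. Some of these fits were tested on simulated data. The members and lists were chosen with earlier results of these data known. All 10 members are named. Of each pathway sublist, the named genes passed in the fits of 6 arrays, with array weights, or without control 3 and TGF-β1 3. Where none passed, the gene of smallest p without control 3 is named. Also named are the 2 genes most like each Id gene whose standard deviation was at least 0.5 times its own. Predicted genes, olfactory and vomeronasal receptor genes and microRNA genes were left out of that search. Other pathway genes given with values stand beside the named genes for their role and were chosen after their values were seen.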

Additional observations from a re-analysis of the deposited data

How the results depend on the processing

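Over 15 alternative settings and the 10 members there were 149 differences, of which 132 kept their direction and their side of the threshold, 5 kept their direction and passed (Id2 3 times, Id3 and Bmp2 1 time each, in fits with array weights or, for Id2, also in the 4 arrays without control 3 and TGF-β1 3) and 12 changed sign; the dim-gene filter left no value for Grem1. Id2 was higher and Bmp2, Bmp4, Id4, Smad6 and Nog were lower in every setting run, but these settings share arrays. Some of the differences were smaller than their SE. Without control 3 and TGF-β1 3, Id4 was at -0.05 ± 0.15, Smad6 at -0.10 ± 0.18 and Nog at -0.08 ± 0.14 (SE). Bmp4 was at -0.02 ± 0.36 without control 3. The number of genes that passed was 0 with all 6 arrays and 0 with any single array left out, but 1342 with array weights, 544 with array weights and control 3 left out, and 505 without control 3 and TGF-β1 3. For the 10 members these counts were 3, 1 and 1, and for the 63 pathway genes 4, 2 and 1. The 12 sign changes were in Id1, Id3, Bmp7 and Grem1. Id1 was at 0.016 after median centring, and Grem1 at 0.011 when arrays were weighted, 0.14 without control 3 and TGF-β1 3, 0.14 with array weights and control 3 left out, and 0.038 after quantile normalization. With single arrays left out, the difference of Id1 ranged from -0.17 to 0.19, that of Id3 from -1.18 to 0.57 (above 0 without control 1 or control 2), that of Bmp7 from -0.086 to 1.49 and that of Grem1 from -0.47 to 0.082; the lowest values of Id3 and Bmp7 and the highest of Grem1 were those without control 3. The median difference of all genes was -0.14 with all arrays, -0.09 after quantile normalization, -0.12 after median centring and 0.01 without control 3. With the replicate number as a block 0 genes passed. Deviations of same-numbered arrays from their group means correlated at -0.07, -0.01 and -0.05 across genes. The control mean included control 3, which lay far from controls 1 and 2, so these correlations cannot show whether arrays were paired. The labels name no pairs, and the numbers were not taken as pairs. The cause of these changes was not tested beyond the arrays left out.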
